A study of Saccharomyces cerevisiae with 6 samples.

Results

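The transcripts of the pentose phosphate pathway were compared in budding yeast before and after removal of sucrose. The set held 10 genes, chosen by name: ZWF1, RKI1 and the paralog pairs SOL3 and SOL4, GND1 and GND2, TKL1 and TKL2, and TAL1 and NQM1. All 10 were found among the 5028 genes with usable values, and all 10 were among the 5011 that passed the filter on low counts and were tested. RNA-seq was performed on poly(A) RNA from BY4741, a laboratory strain of mating type a. The Sucrose group was 3 cultures grown to an OD600 of 0.45 in medium with 2% sucrose. The NoSucrose group was 3 cultures grown in the same way, moved onto filters and then kept 16 min in 2% glycerol plus 2% ethanol, with no sucrose. The Sucrose cultures went straight to a pellet with no filter step, so the change in handling cannot be told apart from the change in carbon source. The labels give SC as the base medium, and the methods give SC without tryptophan.

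In the oxidative branch of the pathway, glucose 6-phosphate is oxidized to a pentose phosphate and NADP+ is reduced to NADPH, which cells use for biosynthesis and against oxidative stress. In the non-oxidative branch, an isomerase and an epimerase interconvert the pentose phosphates, and transketolase and transaldolase exchange carbon units between them and the glycolytic intermediates. The non-oxidative reactions are reversible, and they also supply ribose 5-phosphate for nucleotides and erythrose 4-phosphate for aromatic amino acids. In yeast, several steps are each encoded by a pair of related genes, one of which is usually named the major and the other the minor isoform.

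The 6 libraries held between 25106494 and 33651822 estimated counts. Counts of HIS3, which is only partly removed in this strain, lay between 1164 and 3414, and LEU2, MET17 (MET15) and URA3, which are deleted, had 0 counts in every library. The a-cell receptor gene STE2 had between 5104 and 13953 counts, and the alpha-cell receptor gene STE3 between 174 and 264. Values are given as CPM, a transcript's counts relative to the library total after scaling by TMM factors, and are thus shares of a library. A change in the amount of mRNA per cell is therefore not visible in them, and a larger fraction of responding cells cannot be told apart from a larger response per cell. A transcript was called when its Benjamini-Hochberg adjusted p in edgeR's quasi-likelihood test was below 0.05 and its fold change above 2.

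All 4 of the lower-expressed copies, SOL4, GND2, TKL2 and NQM1, increased after sucrose removal, by 2.58 to 4.63 on the log2 scale. Their partners SOL3, GND1, TKL1 and TAL1 all decreased, with log2 fold changes between -0.79 and -0.20. The single-copy genes diverged: ZWF1 increased by 0.40 and RKI1 had a log2 fold change of -1.13. In total 4 of the 10 members were called as increased, against 12.7% of all tested transcripts, and 1 of 10 as decreased, against 6.03%. Of all called transcripts 67.8% were increased, and 78.5% when libraries were scaled by size alone. At any fold change, 5 members increased and 5 decreased with an adjusted p below 0.05. The background was high at this looser threshold, with 42.2% of all tested transcripts increased and 39.8% decreased. The 3 NoSucrose libraries lay wholly above or wholly below the 3 Sucrose libraries for each of the 10 members, as they did for 84.8% of all tested transcripts. The median log2 fold change was 0.10 over the members and 0.03 over all tested transcripts.

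**Figure D1:**
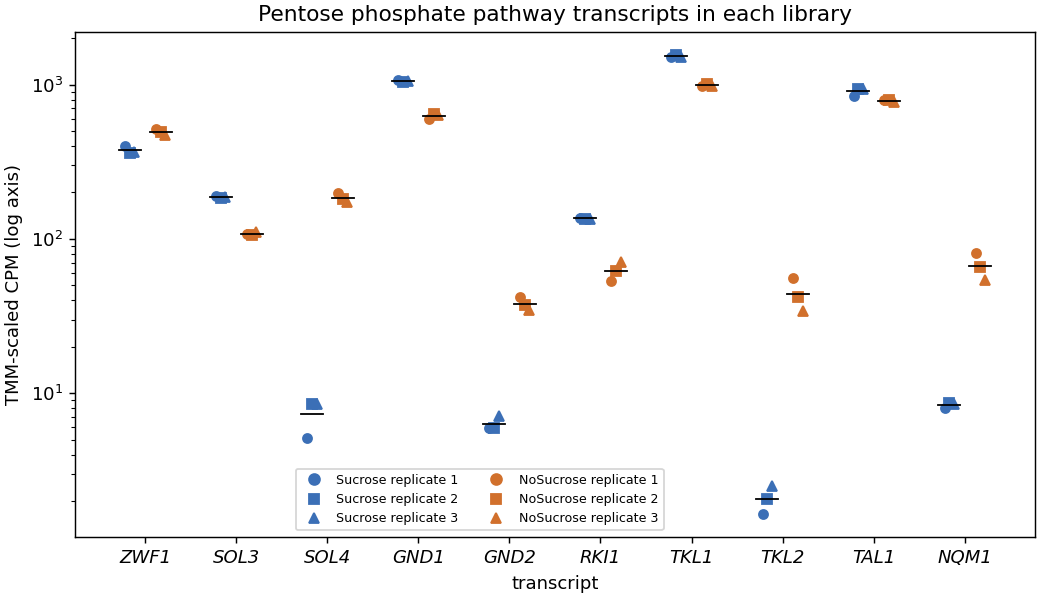
TMM-scaled CPM of each member (log axis) in the 3 Sucrose libraries (blue) and the 3 NoSucrose libraries (orange); symbols mark the replicate and black lines the group means. SOL4, GND2, TKL2 and NQM1 lay below 10 CPM in every Sucrose library and above 30 CPM in every NoSucrose library, whereas SOL3, GND1, RKI1, TKL1 and TAL1 were lower in the NoSucrose libraries.

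The sequences around the start codons are shown for ZWF1 and the 4 increased copies, because these are the 5 transcripts of the set that rose, and for GND1 as a partner that fell. Each runs 5′ to 3′ from 250 bases before the start codon to the base that ends the first 50 of the coding sequence, read from the R64 reference. Capitals mark AGGGG, or CCCCT on the other strand, the core of the stress response element (STRE) to which the transcription factors Msn2 and Msn4 bind. GND1 was the only partner that fell whose window held no match. The windows of SOL3, TKL1 and TAL1, which are not shown, each held a match.

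ZWF1 (chrXIV:197894-198193, minus strand): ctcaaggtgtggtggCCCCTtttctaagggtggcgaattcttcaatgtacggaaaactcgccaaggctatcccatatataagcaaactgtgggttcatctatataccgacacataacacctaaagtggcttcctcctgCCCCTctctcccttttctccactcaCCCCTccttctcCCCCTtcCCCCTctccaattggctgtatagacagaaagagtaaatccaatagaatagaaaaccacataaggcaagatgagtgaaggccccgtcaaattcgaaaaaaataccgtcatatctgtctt
SOL4 (chrVII:985722-986021, plus strand): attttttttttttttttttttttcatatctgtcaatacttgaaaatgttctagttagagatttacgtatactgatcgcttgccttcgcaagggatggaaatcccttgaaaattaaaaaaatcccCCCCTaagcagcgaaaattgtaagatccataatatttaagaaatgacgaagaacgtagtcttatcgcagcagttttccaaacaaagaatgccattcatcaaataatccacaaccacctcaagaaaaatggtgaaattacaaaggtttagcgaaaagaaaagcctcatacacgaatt
GND2 (chrVII:1004374-1004673, plus strand): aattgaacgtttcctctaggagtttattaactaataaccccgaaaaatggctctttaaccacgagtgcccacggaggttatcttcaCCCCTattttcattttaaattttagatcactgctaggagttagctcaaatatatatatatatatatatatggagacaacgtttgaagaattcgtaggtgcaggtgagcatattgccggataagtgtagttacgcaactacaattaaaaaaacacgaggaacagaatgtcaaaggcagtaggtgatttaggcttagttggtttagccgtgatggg
TKL2 (chrII:476388-476687, minus strand): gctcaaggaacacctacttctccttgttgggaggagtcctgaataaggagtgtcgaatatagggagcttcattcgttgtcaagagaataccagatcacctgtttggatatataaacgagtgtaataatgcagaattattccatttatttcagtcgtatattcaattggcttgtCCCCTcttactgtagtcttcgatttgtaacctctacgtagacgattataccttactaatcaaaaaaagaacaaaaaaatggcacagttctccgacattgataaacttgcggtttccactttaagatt
NQM1 (chrVII:581387-581686, minus strand): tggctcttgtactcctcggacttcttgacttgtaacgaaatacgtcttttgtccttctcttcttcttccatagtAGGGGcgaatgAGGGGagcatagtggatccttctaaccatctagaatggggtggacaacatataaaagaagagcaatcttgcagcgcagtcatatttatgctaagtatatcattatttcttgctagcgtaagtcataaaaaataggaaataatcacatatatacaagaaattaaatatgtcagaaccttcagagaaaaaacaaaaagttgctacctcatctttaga
GND1 (chrVIII:470710-471009, plus strand): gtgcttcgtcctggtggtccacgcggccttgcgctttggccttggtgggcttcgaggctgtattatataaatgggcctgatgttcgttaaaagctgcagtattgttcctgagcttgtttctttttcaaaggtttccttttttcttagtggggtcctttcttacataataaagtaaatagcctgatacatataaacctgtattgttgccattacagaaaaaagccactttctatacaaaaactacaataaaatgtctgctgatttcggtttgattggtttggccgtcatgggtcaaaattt

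Searched on both strands, AGGGG occurred 5 times in the ZWF1 window, 2 times in that of NQM1 and 1 time in each of those of SOL4, GND2 and TKL2. At least 1 match was found in 21.6% of the windows of this length around all 6020 protein-coding genes used, at least 2 in 2.92% and at least 5 in 0.0664%, which is 4 genes. In ZWF1 the matches began 235, 112, 87, 75 and 68 bases before the start codon, all on the other strand. Those in SOL4, GND2 and TKL2 began 126, 164 and 77 bases before it. In NQM1 they lay 176 and 165 bases before it and read AGGGG on the coding strand. Matches were not particular to the copies that rose, since the windows of SOL3, TKL1 and TAL1 also had 1 each, and those of GND1 and RKI1 had 0. Among called transcripts with a window, at least 1 match was present for 40.2% of the 630 that increased and 9.97% of the 301 that decreased, against 19.0% of the 4048 not called. CTTCC, the core bound by the glycolytic activator Gcr1, occurred 2 times in each of the windows of ZWF1, TKL1 and TAL1 and 1 time in that of NQM1, and in 46.3% of all windows. TTACTAA, bound by the oxidative stress factor Yap1, occurred 1 time in the TKL2 window, and in 7.49% of all windows. A match in these letters does not show that a factor was bound.

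The oxidative branch begins with ZWF1 (YNL241C, chromosome XIV, 196426 to 197943 in R64, a single coding exon), which encodes glucose 6-phosphate dehydrogenase, the step that commits carbon to the pathway. It had 397, 359 and 367 CPM in Sucrose replicates 1, 2 and 3 and 518, 493 and 473 CPM in NoSucrose replicates 1, 2 and 3. All NoSucrose libraries were higher, and the increase of 0.40 in log2 (SE 0.06, edgeR adjusted p = 0.000337) was 1.32-fold, below the fold change threshold. ZWF1 was the only one of the 6 more abundant members to rise.

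The next step, hydrolysis of the 6-phosphogluconolactone formed by Zwf1, is carried out by the lactonases Sol3 and Sol4. SOL3 (YHR163W, chromosome VIII, 423724 to 424473) had 191, 183 and 187 CPM in the Sucrose libraries and 107, 107 and 111 CPM in the NoSucrose libraries. It decreased by 0.79 in log2 (SE 0.04, edgeR adjusted p = 1.16e-06), which made it 1.73-fold lower. SOL4 (YGR248W, chromosome VII, 985972 to 986739) had 5.13, 8.49 and 8.48 CPM in the Sucrose libraries and 199, 181 and 174 CPM in the NoSucrose libraries. The increase of 4.63 in log2 (SE 0.15, edgeR adjusted p = 1.81e-07), or 24.7-fold, was the largest among the members and ranked 44 among the 5011 tested transcripts. Sucrose replicate 1 was the lowest library for SOL4, with 124 estimated counts. Without it the log2 fold change was 4.44.

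NADPH is formed a second time by 6-phosphogluconate dehydrogenase, encoded by GND1 and GND2, which also releases CO2. GND1 (YHR183W, chromosome VIII, 470960 to 472429), the major isoform, had 1065, 1043 and 1058 CPM in the Sucrose libraries and 597, 642 and 635 CPM in the NoSucrose libraries. It decreased by 0.76 in log2 (SE 0.05, edgeR adjusted p = 2.72e-06). GND2 (YGR256W, chromosome VII, 1004624 to 1006102), the minor isoform, had 5.95, 5.99 and 7.13 CPM in the Sucrose libraries and 41.8, 37.5 and 34.7 CPM in the NoSucrose libraries. It rose by 2.58 in log2 (SE 0.10, edgeR adjusted p = 3.93e-07), or 5.97-fold, the smallest rise of the 4 lower copies. The highest GND2 library remained far below the lowest GND1 library.

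Within the non-oxidative branch, RKI1 (YOR095C, chromosome XV, 503552 to 504328) encodes ribose 5-phosphate ketol-isomerase and has no paralog in the set. It had 138, 135 and 135 CPM in the Sucrose libraries and 53.5, 62.3 and 70.6 CPM in the NoSucrose libraries. RKI1 was the member with the largest decrease and the only one called as decreased, by 1.13 in log2 (SE 0.09, edgeR adjusted p = 9.84e-06), 2.18-fold lower. The Sucrose libraries were close to each other, and NoSucrose replicate 1 was the lowest. With each library left out in turn the value lay between -1.23 and -1.03.

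Transketolase moves 2-carbon units between sugar phosphates. TKL1 (YPR074C, chromosome XVI, 692796 to 694838), the major isoform, had 1513, 1550 and 1519 CPM in the Sucrose libraries and 976, 1012 and 986 CPM in the NoSucrose libraries. It was the member with the most CPM in both conditions, and it decreased by 0.62 in log2 (SE 0.04, edgeR adjusted p = 4.03e-06). TKL2 (YBR117C, chromosome II, 474392 to 476437), the minor isoform, had 1.65, 2.07 and 2.50 CPM in the Sucrose libraries, where 40.4 to 73.6 counts were assigned to it, and 55.8, 42.0 and 34.0 CPM in the NoSucrose libraries. TKL2 rose by 4.38 in log2 (SE 0.24, edgeR adjusted p = 1.42e-06), or 20.9-fold. It was the least abundant member in sucrose medium, where 2.47% of tested transcripts had a lower CPM. Its standard error was the largest of the 10, and with 1 library left out in turn the value stayed between 4.17 and 4.54.

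Transaldolase moves 3-carbon units, and TAL1 encodes the enzyme used in the pathway. TAL1 (YLR354C, chromosome XII, 836350 to 837357) had 838, 936 and 932 CPM in the Sucrose libraries and 793, 798 and 772 CPM in the NoSucrose libraries. Sucrose replicate 1 lay close to the NoSucrose libraries, and the decrease of 0.20 in log2 (SE 0.06, edgeR adjusted p = 0.0117) was the smallest change among the members. It lost an adjusted p below 0.05 without Sucrose replicate 2 (0.0575), without Sucrose replicate 3 (0.0523) and with scaling by library size alone (0.218); over all alternatives the adjusted p lay between 0.000492 and 0.218. NQM1 (YGR043C, chromosome VII, 580435 to 581436) encodes a transaldolase-like protein whose role in the cell is less clear. It had 8.02, 8.70 and 8.48 CPM in the Sucrose libraries and 80.7, 66.2 and 54.1 CPM in the NoSucrose libraries, an increase of 2.99 in log2 (SE 0.15, edgeR adjusted p = 1.11e-06), or 7.94-fold.

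The 4 lower copies shared the order of the NoSucrose libraries. Replicate 1 was the highest and replicate 3 the lowest for each of SOL4, GND2, TKL2 and NQM1. The same order was found for 405 of the 635 called increased transcripts (63.8%), and its mirror image, as seen for RKI1, for 227 of the 302 called decreased transcripts (75.2%). What made NoSucrose replicate 1 the library with the wider departure was not tested. Without it, the log2 fold changes were 4.57 for SOL4, 2.50 for GND2, 4.17 for TKL2 and 2.84 for NQM1.

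Each pair was next compared within libraries, as the log2 ratio of the estimated counts of the lower copy to those of its partner, with 0.5 added to each count. Such a ratio needs no scaling between libraries. The ratio of SOL4 to SOL3 went from -4.70 ± 0.44 (SD, n = 3) in the Sucrose libraries to 0.77 ± 0.12 (SD, n = 3) in the NoSucrose libraries, a change of 5.47 (standard error 0.27). The ratio of TKL2 to TKL1 went from -9.53 ± 0.28 to -4.53 ± 0.37 (SD, n = 3 each), a change of 5.01 (standard error 0.27). That of GND2 to GND1 went from -7.38 ± 0.15 to -4.04 ± 0.19 (SD, n = 3 each), a change of 3.34 (standard error 0.14). That of NQM1 to TAL1 went from -6.74 ± 0.04 to -3.57 ± 0.27 (SD, n = 3 each), a change of 3.17 (standard error 0.16). In all 4 pairs every NoSucrose ratio lay above every Sucrose ratio, and each change exceeded the spread of the replicates. An exact permutation test (two-sided) gave p = 0.1 for each of the 4 pairs, which is the smallest that 3 libraries against 3 can give, and p = 0.1 after Benjamini-Hochberg adjustment over the 4.

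**Figure D2:**
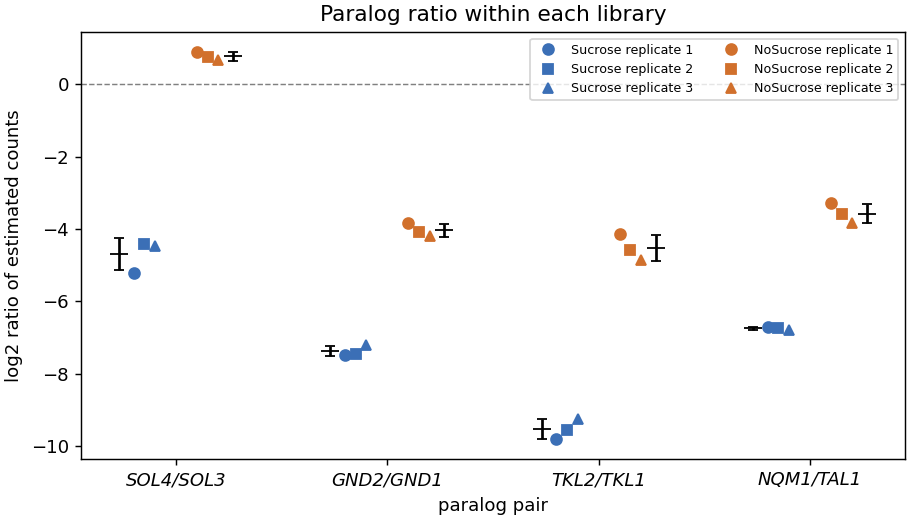
Log2 ratio of the estimated counts of the lower to the higher copy of each pair in the 3 Sucrose libraries (blue) and the 3 NoSucrose libraries (orange), with the mean and SD of each group in black; the dashed line marks equal counts. Only the ratio of SOL4 to SOL3 crossed the line, to 0.77 ± 0.12 (SD, n = 3).

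Counts were divided by coding length to compare the copies with each other. SOL4 made up 3.71% ± 1.00 of the summed SOL3 and SOL4 level in the Sucrose libraries and 62.5% ± 1.97 in the NoSucrose libraries (SD, n = 3 each). It was thus the more abundant lactonase transcript after removal of sucrose, at 1.67 times the level of SOL3 per length, having been 26.6-fold lower before. The other pairs kept their order. GND2 went from 0.595% ± 0.061 to 5.72% ± 0.71 of its pair, TKL2 from 0.135% ± 0.027 to 4.24% ± 1.06, and NQM1 from 0.929% ± 0.024 to 7.86% ± 1.36 (SD, n = 3 each). In the NoSucrose libraries GND1 was still 16.6 times, TKL1 23.1 times and TAL1 11.8 times as abundant per length as its partner.

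Ordered by CPM per kilobase of coding sequence, the members in sucrose medium ran from TAL1 (895 ± 54.9) through TKL1 (748 ± 9.83), GND1 (718 ± 7.68), SOL3 (249 ± 5.15), ZWF1 (247 ± 13.5) and RKI1 (175 ± 2.00) to SOL4 (9.59 ± 2.52), NQM1 (8.38 ± 0.35), GND2 (4.30 ± 0.45) and TKL2 (1.01 ± 0.21; SD, n = 3 each). SOL3 and ZWF1 did not differ by more than the sum of their SDs, and neither did SOL4 and NQM1. After sucrose removal the first 3 places were the same, at 782 ± 13.7 for TAL1, 485 ± 9.12 for TKL1 and 425 ± 16.5 for GND1. ZWF1 (326 ± 14.8) and SOL4 (240 ± 16.7) then stood above SOL3 (144 ± 3.05), RKI1 (80.0 ± 11), NQM1 (66.9 ± 13.3), GND2 (25.7 ± 2.42) and TKL2 (21.5 ± 5.39; CPM per kilobase, SD, n = 3 each). RKI1 and NQM1 were not separated by more than the sum of their SDs in this condition, nor were GND2 and TKL2. SOL4 thus went from below RKI1 to above it.

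Each step was summed over its copies in CPM and compared between the conditions. CPM is not divided by length here, so the sums do not rank the steps against each other. The lactonase step (SOL3 and SOL4) went from 194 ± 2.41 to 293 ± 11.4 CPM, a mean 50.6% higher, since SOL4 gained more CPM than SOL3 lost. The 6-phosphogluconate dehydrogenase step (GND1 and GND2) went from 1062 ± 11.4 to 663 ± 21.3 CPM and the transketolase step (TKL1 and TKL2) from 1529 ± 20.2 to 1035 ± 17.4 CPM, so that the gain of the lower copy did not make up for the loss of the higher one in either pair. The transaldolase step (TAL1 and NQM1) went from 910 ± 55.7 to 855 ± 25.1 CPM (SD, n = 3 for each value). In that step the groups overlapped, and the log2 change of -0.09 turned to 0.02 with scaling by library size alone. All 10 transcripts together went from 4206 ± 37.7 to 3402 ± 51.4 CPM (SD, n = 3 each), a mean 19.1% lower. Longer transcripts weigh more in this sum, because it is not divided by length. The exact permutation test (two-sided) gave p = 0.3 for the transaldolase step and p = 0.1, the smallest possible, for each of the other sums.

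**Figure D3:**
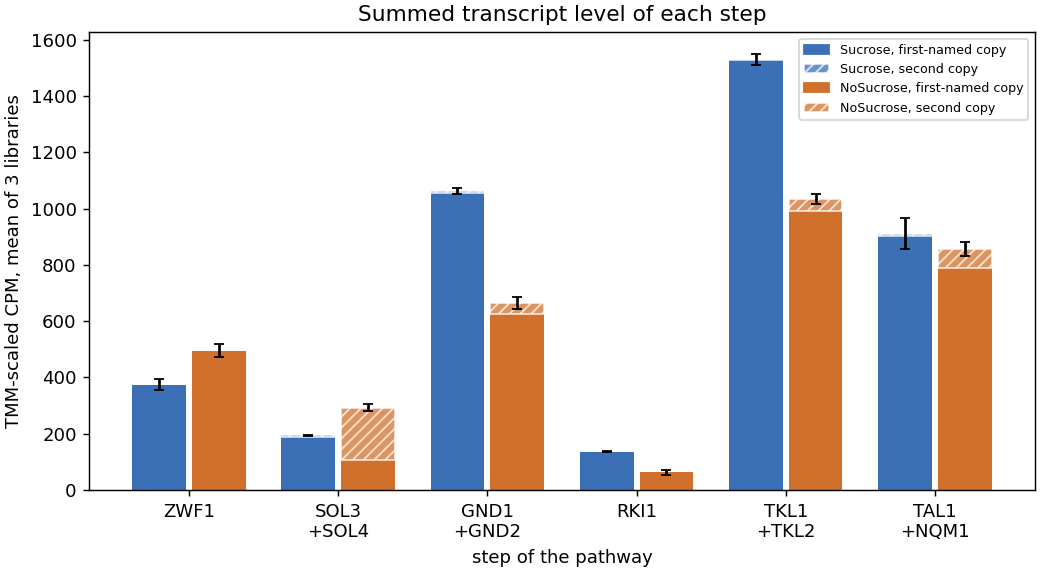
Mean TMM-scaled CPM of each step in the Sucrose (blue) and NoSucrose (orange) libraries, with the second-named copy of each pair stacked as a hatched bar; error bars are the SD of the summed CPM over 3 libraries. ZWF1 and the lactonase step were higher in NoSucrose, the steps of GND1, RKI1 and TKL1 were lower, and the transaldolase step overlapped between conditions. Bars are not divided by length and compare the conditions within a step.

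Sequence shared between copies could let the counting mix their reads, so likeness was measured. By translated coding sequence, Gnd1 and Gnd2 were 88.3% identical over 489 aligned residues, Tkl1 and Tkl2 71.5% over 680, Tal1 and Nqm1 68.5% over 333, and Sol3 and Sol4 49.2% over 248. At the nucleotide level the coding sequences were 79.1%, 69.6%, 68.9% and 59.0% identical, in the same order. No word of 31 bases was shared between the copies of a pair, and none of the 10 coding sequences shared such a word with any other annotated coding sequence. Annotated genes overlapped none of the 10 on either strand. Whether any reads were assigned to the wrong copy was not tested.

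Other genes of the pathway and its surroundings were followed as lists, which were chosen with earlier results of these data known. Of 10 tested genes in or beside the pathway, 6 increased and 4 decreased at an adjusted p below 0.05, against 42.2% and 39.8% of all tested transcripts, so neither count stood far from the background. As increased, 4 of the 10 were called, against 12.7% (median log2 fold change 0.53). RPE1, the epimerase that works beside Rki1, had 215, 224 and 231 CPM in the Sucrose libraries and 145, 156 and 159 CPM in the NoSucrose libraries. It decreased by 0.54 in log2 (SE 0.05, edgeR adjusted p = 3.23e-05), which puts both enzymes that interconvert the pentose phosphates among the decreased transcripts. SHB17, the sedoheptulose bisphosphatase that feeds carbon from glycolysis toward ribose 5-phosphate, decreased by 0.80, the largest decrease of the list. The 4 called genes were XKS1, xylulokinase, at 2.30, GRE3, an aldose reductase, at 1.86, SOL1 at 1.79, and XYL2, xylitol dehydrogenase, at 1.32 on the log2 scale. Gre3, Xyl2 and Xks1 act in sequence on xylose, and XYL2 stayed low, at 13.5 ± 1.28 CPM (SD, n = 3) in the NoSucrose libraries. SOL1 and SOL2, relatives of the lactonase genes whose products are linked to tRNA function, rose by 1.79 and 0.68 on the log2 scale.

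Among 8 genes that form NADPH or NADP outside the pathway, 5 increased and 2 decreased at an adjusted p below 0.05, against 42.2% and 39.8% of all tested transcripts. As increased, 3 of the 8 were called, against 12.7% (median log2 fold change 0.42). IDP3, the peroxisomal NADP-dependent isocitrate dehydrogenase, rose from 9.23 ± 1.20 to 172 ± 34.7 CPM (SD, n = 3 each), by 4.21 in log2 (SE 0.18, edgeR adjusted p = 4.72e-07). Its cytosolic counterpart IDP2 rose by 1.27 and the NAD kinase gene YEF1 by 1.43. The mitochondrial isocitrate dehydrogenase gene IDP1 had a log2 fold change of -0.56, and of -0.43 without Sucrose replicate 1, its highest library. MAE1, mitochondrial malic enzyme, was the lowest of the list at -0.99. It passed the fold change threshold with DESeq2 and with DESeq2 size factors in edgeR. The same held without Sucrose replicate 2 or 3 or NoSucrose replicate 2 (-1.01 to -1.04 over these settings). MAE1 lay at -0.90 without Sucrose replicate 1, its highest library, and at -0.88 with scaling by library size alone. ALD6, the cytosolic aldehyde dehydrogenase that forms NADPH, was the most abundant of the list and rose by 0.66, from 1560 ± 83.4 to 2473 ± 268 CPM (SD, n = 3 each).

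Another list held 9 genes for synthesis of phosphoribosyl pyrophosphate and of aromatic amino acids, which start from ribose 5-phosphate and erythrose 4-phosphate. In it 8 decreased and 1 increased at an adjusted p below 0.05, against 39.8% and 42.2% of all tested transcripts, with a median log2 fold change of -0.66. Without ARO1 and ARO2, whose enzymes act on later intermediates and not on the sugar phosphates, 6 of 7 decreased and 1 increased. PRS1, PRS3, PRS4 and PRS5, subunits of the synthetase that turns ribose 5-phosphate into the precursor of nucleotides, had log2 fold changes between -0.91 and -0.66, and PRS2 was the highest of the list at 0.14, which did not pass with DESeq2 or without Sucrose replicate 2. ARO2, chorismate synthase, was the only gene of the list called, at -1.10, and missed the fold change threshold without Sucrose replicate 1 (-0.99) and with scaling by library size alone (-0.98). Sucrose replicate 1 stood above the other Sucrose libraries for ARO1, ARO2, ARO3 and ARO4. Without it the log2 fold change went from -0.53 to -0.28 for ARO1, from -0.64 to -0.32 for ARO3 and from -0.64 to -0.40 for ARO4, all still past the adjusted p threshold in edgeR. ARO3 did not pass without NoSucrose replicate 1 or 2, nor ARO1 without NoSucrose replicate 2. For ARO4, which condenses erythrose 4-phosphate with phosphoenolpyruvate, Sucrose replicate 1 held 852 CPM against 548 and 550, whereas the NoSucrose libraries held 380, 429 and 438. Such a separation of Sucrose replicate 1 was not seen for TKL1, where it held 1513 CPM against 1550 and 1519. Sucrose replicate 1 did stand apart for some other members, as the lowest Sucrose library for SOL4 (5.13 CPM against 8.49 and 8.48). It was likewise the lowest for TAL1 (838 CPM against 936 and 932) and the highest for ZWF1 (397 CPM against 359 and 367).

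A further list held 6 genes for enzymes that work with NADP or NADPH, such as glutathione and thioredoxin reductases and glutamate dehydrogenases, and MTD1, whose folate dehydrogenase uses NAD. Of the 6, 3 increased and 3 decreased at an adjusted p below 0.05 (median log2 fold change -0.10), against 42.2% and 39.8% of all tested transcripts. MTD1 made up the fourth decrease of the 7 (median -0.31). Its own decrease, at -0.31 (edgeR adjusted p = 0.0354), was lost with the replicate block, with scaling by library size alone, and without any 1 of 4 libraries (Sucrose replicates 1 and 3, NoSucrose replicates 1 and 2). The 1 called gene of the list was GDH3, the glutamate dehydrogenase paralog of GDH1, which rose from 12.8 ± 1.21 to 28.9 ± 1.03 CPM (SD, n = 3 each), by 1.16 in log2 (SE 0.08, edgeR adjusted p = 4.6e-06). GDH1, the lowest of the list, went from 1374 ± 124 to 1006 ± 39.3 CPM (SD, n = 3 each), which is -0.45 in log2 fold change. Without Sucrose replicate 1, its highest library, the value was -0.37. Like the 4 pathway pairs, GDH3 and GDH1 had the lower copy rise and the higher copy fall. So did the thioredoxin reductase genes of the list, TRR2 at 0.72 and TRR1 at -0.37 on the log2 scale. The pattern was not general in the lists. Both copies rose for the NAD kinase genes YEF1 (1.43) and UTR1 (0.18), the lower one more. SOL1 and SOL2, IDP3 and IDP2, and MSN4 and MSN2 also rose together. Of 6 transcription factors tied to the genes above, 5 increased at an adjusted p below 0.05, against 42.2% of all tested transcripts. Each of the 5 rose by less than the fold change threshold, and the other was YAP1. The highest were STB5, an activator of pathway genes, at 0.43 and MSN4 at 0.41 on the log2 scale, and MSN2 stood at 0.22. YAP1 was the lowest at -0.09 (edgeR adjusted p = 0.0827). It had the other sign with scaling by library size alone (0.03) and passed as decreased with DESeq2 (-0.11, adjusted p = 0.0325).

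**Figure D4:**
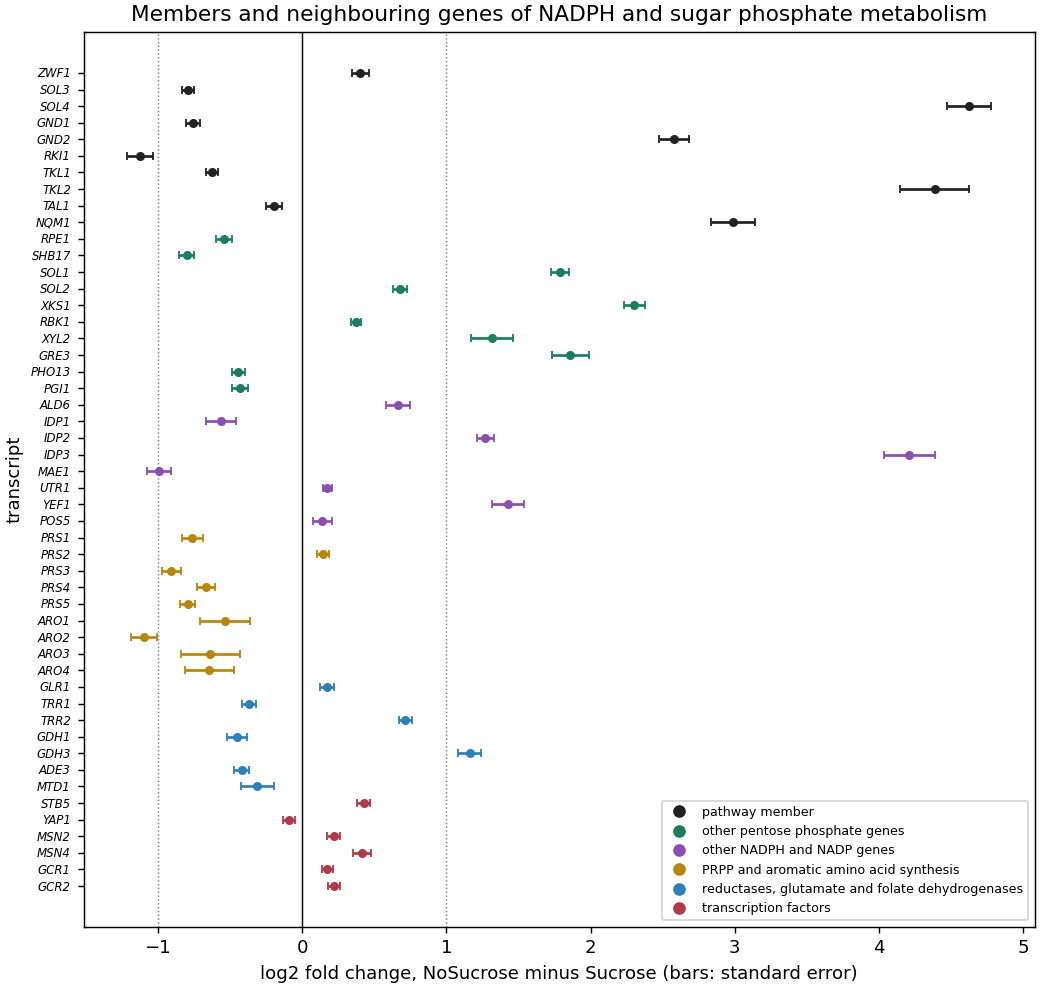
Log2 fold change (NoSucrose minus Sucrose) with its standard error for the 10 members (black) and the genes of the 5 lists (colours), from edgeR's fit over all tested transcripts; dotted lines mark a fold change of 2. SOL4, TKL2, NQM1 and GND2 stood to the right at 2.58 to 4.63, with IDP3 (4.21) among them, and the other members lay between -1.13 and 0.40.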

How the data were processed

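RNA-seq reads of 6 libraries (3 Sucrose, 3 NoSucrose) were trimmed with Flexbar by the authors. The estimated counts were made by the authors with Salmon against a transcriptome of build R64-1-1 and deposited per gene, in an unfiltered table of 5113 genes and a filtered one. The filtered table is named as normalized but holds the same unscaled estimated counts. Its gene names are displaced, so each of its 5028 rows took its name from the unfiltered row holding an identical set of 6 values (exactly 1 match for all 5028). Samples follow its headers, under which 1999 of 1999 genes in a shortened copy of the study's count table were identical to 6 significant digits in all libraries. The unfiltered headers placed 4 of 6 libraries wrongly against these and were not used.

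Counts were rounded, genes with low counts were dropped by filterByExpr (settings 15 per library and 20 in total), counts were scaled by TMM (factors 0.957 to 1.07) and tested with edgeR 4.0.16 in R 4.3.3 (glmQLFit, glmQLFTest, condition only), with Benjamini-Hochberg adjustment over 5011 genes. A call needed an adjusted p below 0.05 and a fold change above 2. The standard error of each log2 value was taken from its F statistic (size of the value over the root of F). The median standard error over all genes was 0.0575. DESeq2 1.42.0 served as an alternative. Paralog ratios were tested with exact permutation tests in SciPy 1.17.1. Sequences and positions come from the RefSeq R64 reference, and coding identity from global alignments in Biopython 1.88.

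The members and lists were chosen with earlier results of these data known. Named genes are the 10 members, RPE1, and the called and the extreme genes of each list; others were named after their values were seen. YDR248C, listed beside the pathway, was not tested. Alternatives were other scalings, no filter, DESeq2, a fold threshold of 1.5, a replicate block and leaving out each library. Replicates are separate cultures per the methods.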

Additional observations from a re-analysis of the deposited data

How the results depend on the processing

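The log2 fold changes of the 10 members kept their direction under all alternatives run. All but TAL1 also kept an adjusted p below 0.05. TAL1 lay at -0.081 with scaling by library size alone and between -0.25 and -0.17 with 1 library left out in turn. That scaling moved the median of all transcripts by 0.11, and relative to the median TAL1 stood at -0.22 under both. The paralog ratio changes kept their direction in all 32 alternatives and, with 1 library left out, spanned 5.22 to 5.61 for SOL4, 3.23 to 3.42 for GND2, 4.81 to 5.17 for TKL2 and 3.03 to 3.30 for NQM1, each against its partner. With a fold change threshold of 1.5, 1989 transcripts were called (1098 increased and 891 decreased), and 4 members were called as decreased in place of 1. Scaling by library size alone left 201 decreased transcripts in place of 302. Leaving out 1 library gave 853 to 1020 calls. Under that scaling the transaldolase sum changed by 0.0249, the opposite sign. The cause of these shifts was not tested. The settings for sums and lists were added after seeing the data.

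Same-numbered libraries of the 2 conditions did not deviate together (correlations of -0.14, -0.002 and 0.04 across genes), so the numbers were not taken as pairs, and only replicate 3 correlated best with its own number. With the replicate block 933 transcripts were called, against 937 without it. Ratios involving TKL2 rest on few counts in the Sucrose libraries.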
